A study of Homo sapiens with 4 samples.

Results

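The genes described here are transcription factors of the developing cerebellum that are also used to describe medulloblastoma: ATOH1, ZIC1, ZIC2, PAX6, EN1, EN2, OTX2, BARHL1, NEUROD1 and SOX2. They were taken by name. For 9 of the 10 the array holds a probe set with exactly 1 gene symbol, among 18417 genes measured in this way. NEUROD1, which drives granule neuron differentiation, has no such probe set in the annotation used here and was not analysed here. The cells were DAOY, an established human medulloblastoma line, infected with lentivirus for 16 to 24 hours, left for 48 hours, and kept in 2 ug/mL puromycin for about 48 hours before RNA was taken. The knockdown group holds 3 samples with the genotype ZFX KD, 1 for each of the hairpins H2, H3 and H4 against ZFX, and the control is 1 sample with the scrambled hairpin SCR. All 4 samples therefore carried a lentiviral hairpin and went through selection. Each was measured on 1 array, so the spread given below is the spread between hairpins, and nothing in the labels says that any transduction was repeated.

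Medulloblastoma is a tumour of the cerebellum with several molecular subgroups, and the subgroup driven by Sonic hedgehog (SHH) is traced to granule neuron progenitors. Those progenitors leave the rhombic lip under ATOH1, a basic helix-loop-helix factor, and express BARHL1, ZIC1, ZIC2 and PAX6 as they multiply and mature. EN1 and EN2 pattern the midbrain and anterior hindbrain from which the cerebellum forms, OTX2 sets the midbrain side of that border and is a known oncogene of the non-SHH, non-WNT tumours, and SOX2 maintains neural stem cells. ZFX is an X-linked zinc finger protein that binds DNA and activates transcription, and the arrays ask what lowering it does to gene expression in these cells. On the H2, H3 and H4 arrays the ZFX probe set (8166500) read 52.1%, 52.4% and 69.6% of its scrambled value.

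The promoters of 6 genes are shown, as windows of 250 bases before to 50 bases after an annotated start, from RefSeq on GRCh38.p14. ZIC1, ZIC2 and PAX6 read lower with every hairpin, OTX2 read higher with every hairpin, and SOX2 was lowest with H3 and highest with H4. POU3F2 is not one of the factors. It was picked after its values were seen to follow the same order as those of SOX2, so that likeness is part of the choice. Capitals mark AGGCCT, the core letters known from ZFX binding sites, which read the same on both strands.
ZIC1 (chr3:147409115-147409414, plus strand): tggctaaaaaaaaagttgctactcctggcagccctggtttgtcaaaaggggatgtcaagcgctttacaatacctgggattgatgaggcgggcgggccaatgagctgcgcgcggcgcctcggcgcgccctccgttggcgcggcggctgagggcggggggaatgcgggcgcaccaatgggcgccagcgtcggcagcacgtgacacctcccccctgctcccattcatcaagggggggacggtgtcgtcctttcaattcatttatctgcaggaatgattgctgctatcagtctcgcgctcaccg
ZIC2 (chr13:99981534-99981833, plus strand): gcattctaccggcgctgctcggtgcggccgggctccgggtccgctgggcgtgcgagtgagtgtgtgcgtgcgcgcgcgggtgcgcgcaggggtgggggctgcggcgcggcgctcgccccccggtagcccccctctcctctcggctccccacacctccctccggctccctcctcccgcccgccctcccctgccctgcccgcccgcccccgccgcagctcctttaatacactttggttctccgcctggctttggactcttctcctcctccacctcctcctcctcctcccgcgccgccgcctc
PAX6 (chr11:31812671-31812970, minus strand): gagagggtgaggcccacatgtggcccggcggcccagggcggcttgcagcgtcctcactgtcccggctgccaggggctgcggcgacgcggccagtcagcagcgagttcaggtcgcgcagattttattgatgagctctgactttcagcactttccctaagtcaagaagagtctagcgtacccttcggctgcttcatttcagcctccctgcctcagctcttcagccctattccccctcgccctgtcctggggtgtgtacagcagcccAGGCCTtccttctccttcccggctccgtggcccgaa
OTX2 (chr14:56810430-56810729, minus strand): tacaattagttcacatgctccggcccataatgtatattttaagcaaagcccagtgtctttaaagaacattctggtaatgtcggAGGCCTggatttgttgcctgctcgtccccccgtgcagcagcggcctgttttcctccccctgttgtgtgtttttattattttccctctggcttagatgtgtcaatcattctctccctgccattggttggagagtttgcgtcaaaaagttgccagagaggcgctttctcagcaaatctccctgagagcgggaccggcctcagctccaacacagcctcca
SOX2 (chr3:181711675-181711974, plus strand): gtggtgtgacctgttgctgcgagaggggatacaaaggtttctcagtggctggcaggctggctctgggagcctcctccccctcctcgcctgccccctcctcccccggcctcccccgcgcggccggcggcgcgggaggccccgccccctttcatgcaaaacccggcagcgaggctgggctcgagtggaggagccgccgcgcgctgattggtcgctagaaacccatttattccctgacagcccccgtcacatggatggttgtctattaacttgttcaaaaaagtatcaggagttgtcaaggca
POU3F2 (chr6:98834324-98834623, plus strand): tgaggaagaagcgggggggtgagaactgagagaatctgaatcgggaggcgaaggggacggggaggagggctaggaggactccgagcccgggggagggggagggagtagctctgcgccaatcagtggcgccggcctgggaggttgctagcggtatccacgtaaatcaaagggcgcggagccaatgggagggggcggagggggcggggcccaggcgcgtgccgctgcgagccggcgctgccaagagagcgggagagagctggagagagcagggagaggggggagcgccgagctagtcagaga

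AGGCCT stood in 3 of 17 promoter windows of the measured factors and in 10.9% of the 35116 windows of all genes. By gene, PAX6 (2 of its 9 windows) and OTX2 (1 of its 2 windows) held it, or 2 of the 8 factors with a window, against 13.0% of 27305 genes. Of these 2 genes, PAX6 read lower and OTX2 higher on the knockdown arrays. A gene with more windows has more places to hold the letters, and PAX6 had 9 of the 17, so the shares by gene are not alike. The PAX6 window shown is the one whose AGGCCT starts nearest the start site, 14 bases after it, and in the OTX2 window it starts 167 bases before (-167). The letters are a description of these windows and were not set against any binding data. The windows of the measured factors had a median GC share of 61.7%, against 58.7% over all windows, with 78.0% in EN2 and 75.0% in ZIC2.

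All 9 measured factors read above the 25th percentile of gene means, a log2 intensity of 6.78, when averaged over the 4 arrays. ATOH1 (probe set 8096461, chromosome 4) did so narrowly. Its mean was 6.82, and it stood above 6.78 on the H2 (6.98) and H4 (6.80) arrays but not on the H3 (6.75) or scrambled (6.74) array. The other 8 were above it on every array, and ZIC1, ZIC2, OTX2 and SOX2 were also above the 50th percentile of 8.44. No detection call was used here. As a guide to how dim probe sets read, the 341 olfactory receptor genes had a median of 5.78 and a 95th percentile of 6.86, which is above the ATOH1 mean, and 25 of them (7.33%) passed the 25th percentile. Of the 341, 4 reached the mean of EN1 (7.63). Probe sets differ in how strongly they respond, so these levels place each gene against a filter and do not rank the factors.

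**Figure D1:**
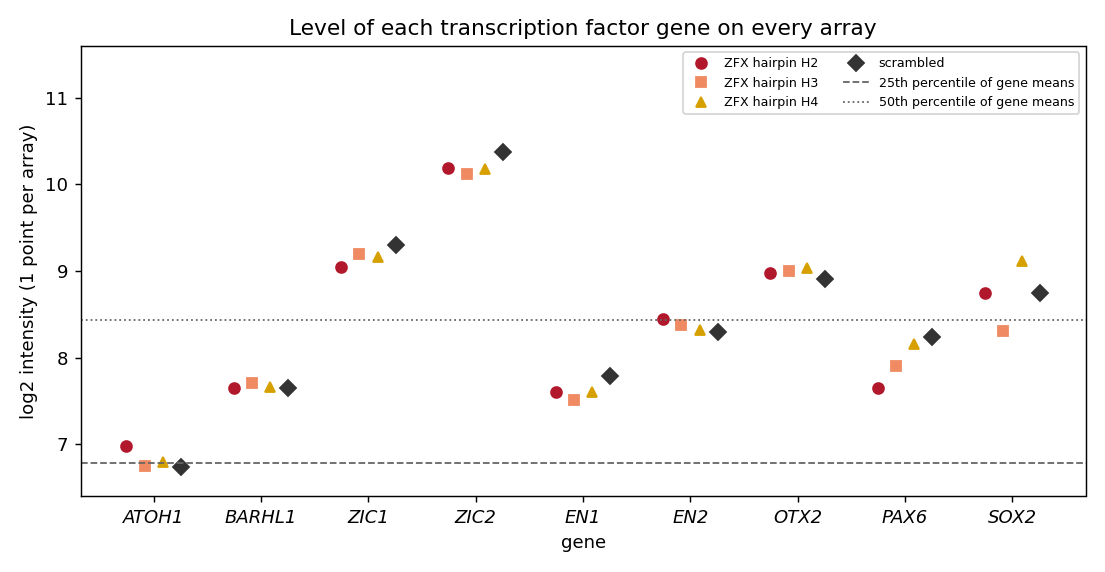
Log2 intensity (vertical axis) of each of the 9 measured factors (horizontal axis), with 1 point per array for hairpins H2, H3 and H4 and the scrambled control; the dashed and dotted lines are the 25th and 50th percentiles of gene means (6.78 and 8.44). ATOH1 lies on the lower line, and for ZIC1, ZIC2, EN1 and PAX6 the scrambled point is the highest of the 4.

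The line was also set against marker lists of its labelled origin and of other cell types, beside the 75.0% of all genes that the filter keeps. Of 25 rhombic lip and granule lineage genes 19 passed (76.0%), and of 21 genes in a medulloblastoma subgroup signature 16 passed (76.2%), shares close to that of all genes. GABRA6, the receptor subunit of mature granule neurons, read 5.63 and NHLH2 5.69, both below the filter. Mesenchymal markers passed for 12 of 12 measured genes, epithelial markers for 5 of 7, haematopoietic markers for 4 of 7, endothelial markers for 3 of 7, neuronal markers for 6 of 13 and glial markers for 5 of 11. Keratins KRT7, KRT8, KRT18 and KRT19 and CLDN4 were the epithelial genes that passed, while EPCAM (6.04) and CDH1 (6.07) did not. Of the blood genes, CD68, LCP1, LAPTM5 and CD14 passed and PTPRC (5.41) did not.

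Against the scrambled array the differences of the factors were small. With all 3 hairpins, 4 of 9 read lower (ZIC1, ZIC2, EN1 and PAX6), where 30.6% of the 13813 genes above the filter did, and 4 of 9 read higher (ATOH1, EN2, OTX2 and BARHL1), where 16.9% of genes did. ATOH1 passed the filter only through knockdown arrays (its mean without H2 was 6.77), so its place among the higher genes is tied to the filter, and of the other 8 factors 4 read lower and 3 higher. SOX2 lay on both sides, as 52.5% of genes did. With each array centred on its median the same 4 factors were lower and the same 4 higher with all 3 hairpins, while the shares over all genes became 23.3% and 23.6%. None of the 9 reached 1.5-fold with any hairpin. Over all genes the shares at least 1.5-fold lower were 5.61%, 1.14% and 2.17% for the H2, H3 and H4 arrays, and the shares at least 1.5-fold higher were 0.992%, 0.528% and 0.608%. In limma's moderated test of the 3 knockdown arrays against the scrambled one, 0 of the 9 passed an adjusted p of 0.05 over all genes (each adjusted p = 0.9998), and 0 had an unadjusted p under 0.05. Neither did any other gene pass (0%), and 446 (3.23%) had an unadjusted p under 0.05, or 447 without the intensity trend. ZFX, the gene that the hairpins target, was among the genes that did not pass. It read 52.1%, 52.4% and 69.6% of its scrambled value with H2, H3 and H4. A count of 0 in this test therefore does not show that the factors were unchanged. The median of the 9 mean log2 differences was -0.026, beside -0.035 over all genes tested.

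**Figure D2:**
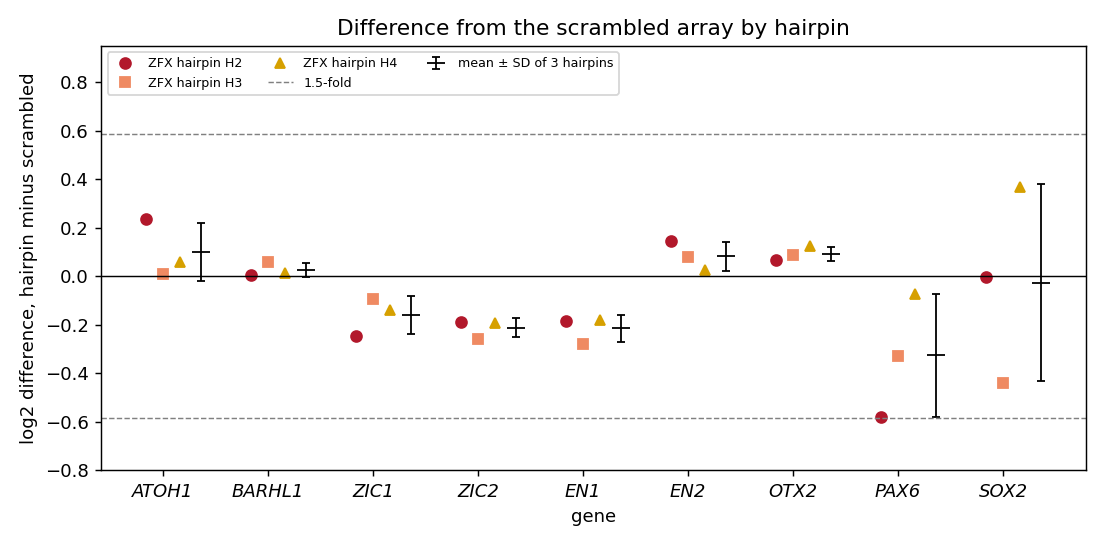
Log2 difference from the scrambled array (vertical axis) for each factor (horizontal axis), by hairpin, with the mean and SD of the 3 hairpins in black; dashed lines mark 1.5-fold. No point crosses a dashed line, PAX6 with H2 comes nearest (-0.58), and SOX2 has points on both sides of zero.

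Among the factors of the granule lineage, the zinc finger genes ZIC1 and ZIC2 were lower with each hairpin. ZIC2 (probe set 7969830, chromosome 13), a gene mutated in holoprosencephaly, had intensities of 1165, 1110 and 1160 with H2, H3 and H4, against 1326 with the scrambled hairpin. The 3 knockdown arrays lay within 0.07 of each other on the log2 scale, and all were below the scrambled one. On average it differed by -0.21 ± 0.039 on the log2 scale (SD over n = 3 hairpins; limma SE 0.13), or 86.3% of the scrambled level. ZIC1 (8083233, chromosome 3), which holds neural progenitors back from differentiating in the mouse, read 529.2, 589.3 and 571.2 with H2, H3 and H4, against 628.4 on the scrambled array. All 3 were again below it, by a mean of -0.16 ± 0.080 (SD, n = 3; SE 0.14). Differences at least as large as these, in either direction, were found at 21.0% of all genes tested for ZIC2 and 31.7% for ZIC1.

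Their relatives were read where they passed the filter. ZIC5, the chromosomal neighbour of ZIC2, read 418.3, 381.5 and 410.5 with H2, H3 and H4, against 447.3 with the scrambled hairpin. It was thus also lower with each, with a mean log2 difference of -0.15 ± 0.070 (SD, n = 3). ZIC4, which lies beside ZIC1 on chromosome 3, was below the filter (mean 6.29), with log2 differences of 0.05, 0.12 and 0.06. ZIC1, ZIC2 and ZIC5 stayed below the scrambled array on average under each scaling tried, with means of -0.10, -0.17 and -0.10 after a second quantile normalization. These genes share zinc finger sequences, and how far their probe sets read each other was not tested.

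PAX6 (7947338, chromosome 11), the paired box factor of granule neurons and of the eye, showed the largest mean difference among the 9. It read 201.6, 240.2 and 286.7 with H2, H3 and H4, against 301.4 on the scrambled array. The order was thus H2, H3, H4 and scrambled from low to high, and the step from H4 to scrambled was smaller than either step between hairpins. Its log2 differences were -0.58, -0.33 and -0.07 for H2, H3 and H4, a mean of -0.33 ± 0.25 (SD, n = 3; limma SE 0.21). Without H2 the mean was -0.20. A mean difference of this size or more was found at 8.69% of genes tested, and a spread between hairpins as wide at 13.7%. The 3 genes whose 3 differences lay nearest to those of PAX6 (Euclidean distance over 3 hairpins, 13813 genes) were SLC44A1, a choline transporter, at 0.031, NAT14 at 0.034 and TXNDC16 at 0.046.

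The PAX family as a whole did not share a direction. PAX3, the paired box gene of neural crest and muscle, read 257.5, 350.6 and 283.1 with H2, H3 and H4, against 437.9 with the scrambled hairpin. It was lower with each, by a mean log2 difference of -0.57 ± 0.23 (SD, n = 3; unadjusted p = 0.034 and adjusted p = 0.9998 in limma). PAX9, known from pharynx and teeth, read 1433, 1291 and 1776 with H2, H3 and H4, against 1169, and was above the scrambled array with each (mean 0.35 ± 0.23, or 0.22 without H4). PAX5, a gene of the midbrain-hindbrain border and of B cells, stood apart only with H2, with log2 differences of 0.55, 0.04 and 0.04. Over the 23 measured relatives of the factors (ZIC, PAX, OTX, BARHL, NEUROD, NEUROG, ATOH and SOX genes), 17 passed the filter. Of these, 3 were lower and 3 higher with all 3 hairpins, beside 30.6% and 16.9% of all genes above the filter. Of the 17, 0 passed the test, and the median of the mean differences was -0.01.

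**Figure D3:**
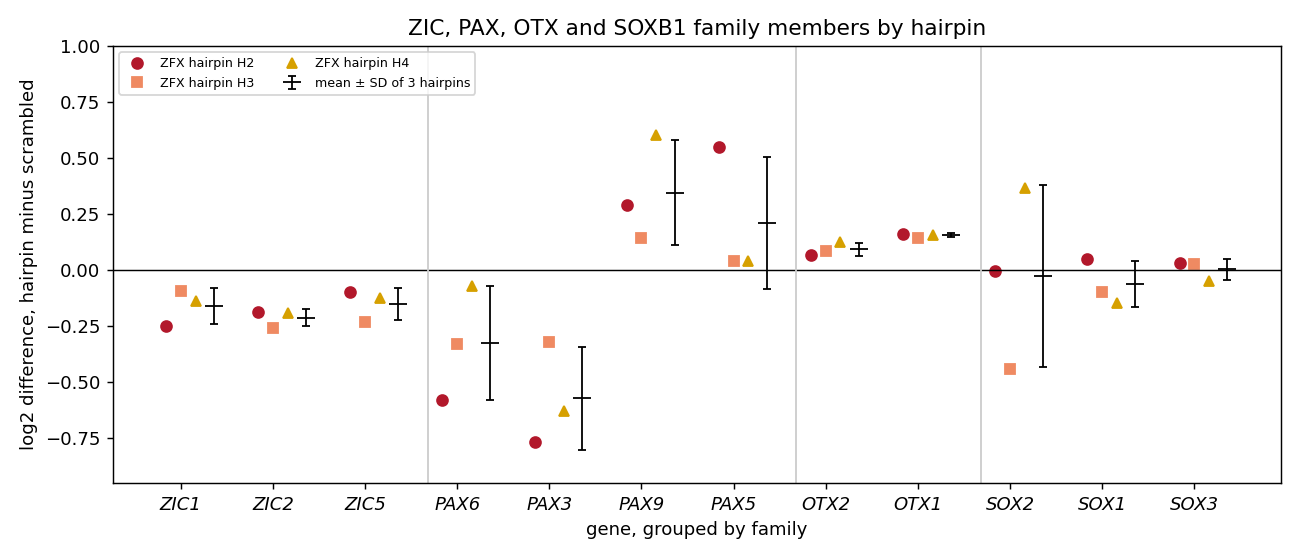
Log2 difference from the scrambled array (vertical axis) for genes of the ZIC, PAX, OTX and SOXB1 families (horizontal axis, families parted by grey lines), by hairpin, with the mean and SD of 3 hairpins. The 3 ZIC genes lie below zero with each hairpin, PAX6 and PAX3 lie below and PAX9 above it, and SOX2 has the widest spread of the 3 SOXB1 genes.

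The 2 engrailed genes differed in direction. EN1 (8054831, chromosome 2), which is needed in the mouse for the midbrain and cerebellum to form, read 194.9, 182.5 and 195.2 with H2, H3 and H4, against 221.3 on the scrambled array. All 3 knockdown arrays were below it, within 0.10 of each other on the log2 scale. The mean log2 difference came to -0.21 ± 0.056 (SD, n = 3; SE 0.11, unadjusted p = 0.106 and adjusted p = 0.9998 in limma), the lowest unadjusted p of the 9. EN2 (8137537, chromosome 7), which patterns the cerebellar folds in the mouse, read 347.6, 331.7 and 319.7 with H2, H3 and H4, against 314.3. The values were above the scrambled one by 0.15, 0.08 and 0.02 on the log2 scale, a mean of 0.08 ± 0.061 (SD, n = 3; SE 0.13), and the mean was 0.05 without H2. The difference between the 2 genes was not tested.

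OTX2 (7979357, chromosome 14) read 503.6, 511.0 and 524.2 with H2, H3 and H4, against 480.9 with the scrambled hairpin. It was above the scrambled value with each hairpin, by a mean log2 difference of 0.09 ± 0.029 (SD, n = 3; SE 0.13 in limma). Its relative OTX1, which acts in forebrain development, read 226.5, 223.8 and 225.5, against 202.3. It was also above with each, by 0.15 ± 0.009 (SD, n = 3, with a limma SE of 0.11). A spread between hairpins at least that wide was found at 99.5% of genes. This spread leaves out any variation of the lone scrambled array, which all 3 differences share. Of 16 genes of the midbrain-hindbrain border that OTX2 and the engrailed genes help to set, all passed the filter and 0 passed the test. With all 3 hairpins 2 were lower and 1 higher, beside 30.6% and 16.9% of all genes above the filter. The largest mean differences were those of PAX5, of the signalling inhibitor SPRY2 (log2 differences of 0.48, 0.18 and -0.12) and of its relative SPRY1 (0.05, -0.12 and -0.25), and the median was -0.03.

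ATOH1, the factor that specifies granule progenitors, had intensities of 126.2, 107.8 and 111.5 with H2, H3 and H4, against 107.1 on the scrambled array. The H2 array read highest and the H3 and H4 arrays nearer the scrambled one, with log2 differences of 0.24, 0.01 and 0.06 and a mean of 0.10 ± 0.12 (SD, n = 3), or 0.03 without H2. BARHL1 (8158912, chromosome 9), a homeobox target of Atoh1 in the mouse, read 201.5, 208.7 and 202.4, against 200.5. These 4 values are nearly the same, with a mean log2 difference of 0.03 ± 0.028 (SE 0.11), which was 0.01 without H3, and after cyclic loess it no longer read higher with all 3 hairpins. Of the 19 rhombic lip and granule lineage genes above the filter, 3 were lower and 3 higher with all 3 hairpins, beside 30.6% and 16.9% of all genes. Of the 19, 0 passed the test, and their median was 0.03. The homeobox gene TLX3 had the largest mean difference (-0.21 ± 0.12), followed by the nuclear factor NFIB (-0.20 ± 0.22, or -0.08 without H2) and by CBLN3, a cerebellin of granule neurons (0.19 ± 0.097).

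SOX2 (8084165, chromosome 3) was the factor on which the hairpins differed most. It read 429.1, 316.8 and 554.9 with H2, H3 and H4, against 430.1 on the scrambled array. The H2 array was at 99.8% of the scrambled value, the H3 array at 73.7% and the H4 array at 129.0%. The hairpins averaged -0.03 ± 0.40 from it on the log2 scale (SD, n = 3; limma SE 0.31), and a spread between hairpins as wide was found at 4.28% of genes tested. The mean turned to 0.18 without H3 and to -0.22 without H4, and it was positive, at 0.003 to 0.025, under the 3 other scalings. SOX2 lies inside the longer non-coding gene SOX2-OT in RefSeq, and whether the probe set also reads that transcript was not tested.

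POU3F2, the neural POU-domain factor also called BRN2 and a known partner of SOX2 in neural progenitors, had the third smallest distance to SOX2 over the 3 hairpins among 13813 genes (0.15). It was singled out after its values were seen, so its likeness to SOX2 is part of the choice. POU3F2 read 470.4, 315.1 and 567.5 with H2, H3 and H4, against 466.7 with the scrambled hairpin, so that it too was lowest with H3 and highest with H4. The 2 genes nearer to SOX2 were GPAT3, a glycerol phosphate acyltransferase (0.092), and PHF6, a chromatin-binding protein (0.13). Both were also lowest with H3 and highest with H4. The close relatives did not vary so widely. SOX1 had log2 differences of 0.05, -0.10 and -0.14, SOX3 of 0.03, 0.03 and -0.05, and POU3F3 of -0.01, -0.14 and -0.07. With 1 array for each hairpin, a difference between hairpins and a difference between single cultures or arrays cannot be told apart.

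**Figure D4:**
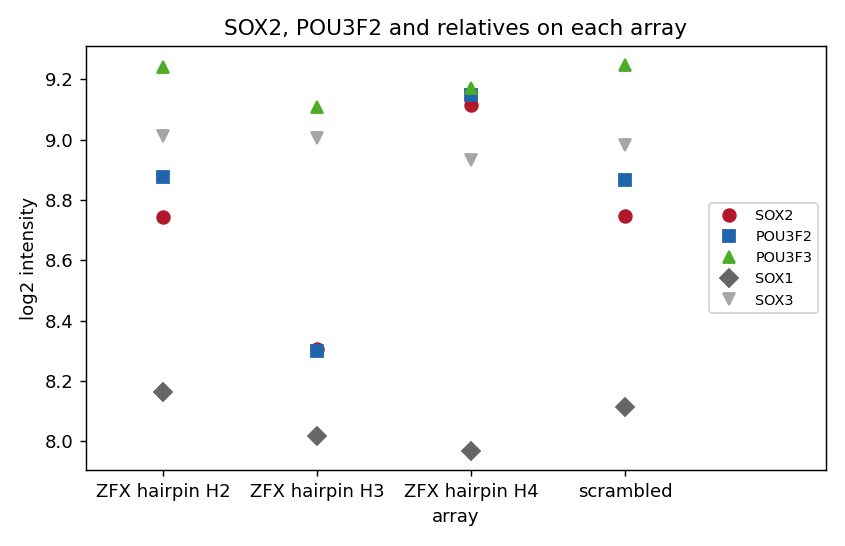
Log2 intensity (vertical axis) of SOX2, POU3F2, POU3F3, SOX1 and SOX3 on each of the 4 arrays (horizontal axis), 1 point per gene and array, to be compared across arrays and not between genes. SOX2 and POU3F2 are both lowest with H3 and highest with H4, and both read on the H2 array nearly what they read on the scrambled one. POU3F2 was picked after its values were seen.

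A neural stem cell list, which includes SOX1, SOX3, POU3F2 and POU3F3, had 19 genes above the filter. Of these, 3 were lower and 3 higher with all 3 hairpins, beside 30.6% and 16.9% of all genes above the filter. Of the 19, 0 passed the test, and the median was -0.02. MSI1, the RNA-binding protein Musashi, had the largest mean difference. It read 277.5, 263.3 and 286.8 with H2, H3 and H4, against 356.8 on the scrambled array, a mean log2 difference of -0.37 ± 0.062 (SD, n = 3; unadjusted p = 0.029 and adjusted p = 0.9998 in limma). LIN28B, a regulator of let-7 microRNAs, followed with -0.31 ± 0.24, which was -0.19 without H4. ID3 differed by 0.15 (H2), 0.42 (H3) and -0.12 (H4), and its mean of 0.15 ± 0.27 was 0.015 without H3. The stem cell marker NES stood at 6.78, just under the filter. In the cerebellar GABAergic lineage, which gives Purkinje cells, 8 of 13 measured genes passed the filter. With all 3 hairpins 1 was lower and 5 were higher, where 30.6% and 16.9% of all genes above the filter were. The median was 0.11, with KIRREL2 among the 8. The lower one was the LIM homeobox gene LHX1, at 60.4%, 67.7% and 83.0% of the scrambled level with H2, H3 and H4 (mean log2 difference -0.52 ± 0.23). KIRREL2 (0.18 ± 0.030) and LHX5 (0.18 ± 0.078) were the largest on the higher side, but KIRREL2 stood above the filter on the 3 knockdown arrays only (6.66 on the scrambled one), so that its place among the higher genes is tied to the filter.

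In the medulloblastoma subgroup signature, 16 of 21 genes besides ATOH1 passed the filter, and the median was 0.00. With all 3 hairpins 3 were lower and 4 higher, beside 30.6% and 16.9% of all genes above the filter. In the order H2, H3, H4, the secreted WNT inhibitor SFRP1 differed by -0.18, -0.20 and -0.76, PDLIM3 by -0.11, 0.63 and 0.20, and NRL, the photoreceptor factor, by -0.22, -0.23 and -0.16. None of these passed the test.

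**Figure D5:**
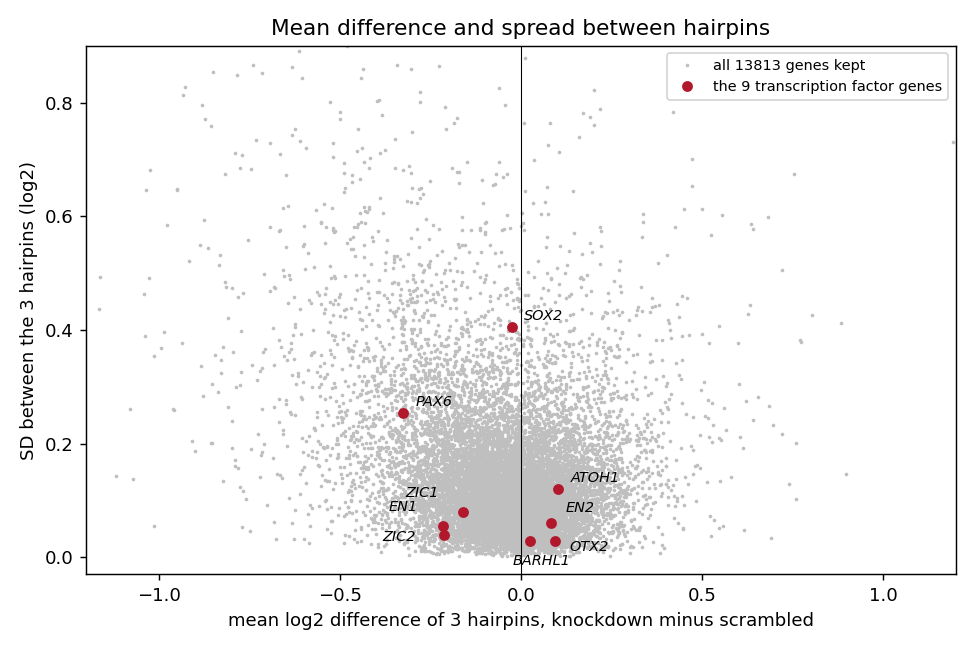
Mean log2 difference of the 3 hairpins from the scrambled array (horizontal axis) against the SD between hairpins (vertical axis) for the 13813 genes kept (grey, 31 lie outside the frame), with the 9 factors in red. The factors lie within the cloud of all genes, with SOX2 high for its small mean difference and ZIC2, EN1, OTX2 and BARHL1 low.

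Markers of some other cell types also differed between the groups, though none passed the test. For the glial and mesenchymal lists, the knockdown arrays did not share a direction in summed log2 level. All 5 epithelial markers above the filter were lower with all 3 hairpins, where 30.6% of all genes above the filter were. The largest differences were those of KRT8 (mean log2 difference -0.54 ± 0.099), KRT7 (-0.34 ± 0.029) and CLDN4 (-0.20 ± 0.071), the last close to the filter at a mean level of 6.96. The summed log2 level of the 7 measured was 58.0 to 58.3 on the knockdown arrays and 59.6 on the scrambled one. Each such sum runs over all measured genes of a list, also those below the filter. The endothelial sum thus takes in PECAM1, CDH5, KDR and VWF, and the haematopoietic sum PTPRC, CD53 and ITGAM, all below the filter. Endothelial markers summed to 49.5 to 51.2, against 53.0, with 2 of the 3 above the filter lower with each hairpin (TIE1 at -1.17 ± 0.44 and TEK at -0.54 ± 0.46, beside CLDN5 at 0.07 ± 0.14). The haematopoietic markers summed to 53.1 to 55.8, against 56.9, with 1 of 4 lower with each hairpin (LCP1 at -1.16 ± 0.49, beside LAPTM5 at -0.63 ± 0.86 and CD68 at -0.10 ± 0.41). The endothelial and haematopoietic counts also stand beside the 30.6% of all genes above the filter that were lower. Glial markers summed to 75.9 to 77.0, against 76.1, with CSPG4 at -0.75 ± 0.56, PDGFRA at 0.26 ± 0.23 and SOX10 at 0.12 ± 0.093. Over all 13 measured, neuronal markers summed to 96.7 to 97.2, against 96.2. Of the 6 above the filter, however, 4 were lower and 1 higher with all 3 hairpins, beside 30.6% and 16.9% of all genes. The median of their mean differences was -0.12. NEFL was the higher one (0.60 ± 0.30), and NCAM1 (-0.37 ± 0.24) and SNAP25 (-0.25 ± 0.22) were among the lower. Mesenchymal markers summed to 132.1 to 137.2, against 134.6, with PRRX1 at 0.72 ± 0.51, TAGLN at -0.67 ± 0.94 and COL3A1 at 0.44 ± 0.42. Leaving out 1 hairpin moved several of these means by over 1.5 times. Without H2, TEK was at -0.27, LAPTM5 at -0.15, CSPG4 at -0.44, PDGFRA at 0.13, SOX10 at 0.075, PRRX1 at 0.46, TAGLN at -0.33, CLDN5 at -0.0091 and CD68 at 0.081. Without H3, SNAP25 was at -0.14 and TAGLN at -1.21, and without H4, COL3A1 was at 0.22 and LAPTM5 at -0.98. The part of any such difference between cultures in the values of ZIC1, ZIC2, EN1 and PAX6 was not tested. The samples were all of the DAOY line, and whether cells of more than 1 kind were present was not tested. In RNA from whole cultures, a change in the share of some cells and a change in RNA per cell cannot be told apart.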

How the data were processed

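Gene expression was measured on 1 array for each of 4 DAOY samples. The deposited values are 1 intensity per probe set and array, made by the authors with RMA as the submitters' processing notes name it. The sources used here do not give a version, software or genome build. RMA sets all arrays to a common distribution, which would hide a change in total RNA. The intensities were on a linear scale, with medians of 226.0 to 232.3, so log2 was taken first. Across 33297 probe sets, pairs of arrays had correlations of 0.992 to 0.996 in log2 intensity. Precision is limited by the number of arrays.

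The platform annotation gives exactly 1 symbol to 19460 probe sets and several to 1754. The highest-mean probe set stood for each of 18417 genes, and each factor had 1. Genes below the 25th percentile of gene means were left out, which left 13813. The 3 hairpins were fitted against the scrambled array with limma 3.58.1 in R 4.3.3 (lmFit, eBayes with intensity trend, Benjamini-Hochberg over all genes, threshold 0.05). This leaves 2 residual degrees of freedom, which come from the 3 hairpins alone, and assumes that the lone scrambled array varies like them. The p-values thus rest on the spread between hairpins, moderated towards that of genes of like intensity. They hold no measure of the spread between control samples. An exact permutation test over 4 arrays cannot go below 0.25. Fold changes are knockdown over scrambled, and single hairpins were given no test.

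The factors, gene lists (written from general knowledge) and tests were chosen with earlier results of these data known. The genes named are the factors, ZFX, the 3 genes nearest to the factor with the largest mean difference, and 3 genes with the largest mean difference in each list; ZIC4, ZIC5, OTX1, SOX1, SOX3, POU3F2, POU3F3, GPAT3 and PHF6, and the lineage and marker genes quoted for their level or for passing the filter, were added after values were seen. Other scalings, filters, probe set rules, an offset of 50, no trend and leaving out each hairpin were tried.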

Additional observations from a re-analysis of the deposited data

How the results depend on the processing

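The counts of 0 factors and 0 genes called in limma, and of 0 factors at least 1.5-fold from the scrambled array, held under each alternative run. ZIC1, ZIC2, EN1 and PAX6 read lower on average, and ATOH1, EN2, OTX2 and BARHL1 higher, under each alternative that kept them. With the filter at the 50th percentile, 4 factors were kept, 2 lower (ZIC1 and ZIC2) and 1 higher (OTX2) with all hairpins, in the same directions as before. The counts fell because ATOH1, PAX6, EN1, EN2 and BARHL1 were below that filter. SOX2 turned to 0.0063 with each array centred on its median, 0.025 after quantile normalization again and 0.0032 after cyclic loess. Leaving out 1 hairpin in turn, its mean ran from -0.22 to 0.18, that of POU3F2 from -0.28 to 0.15, SOX3 from -0.011 to 0.029, CLDN5 from -0.0091 to 0.11 and CD68 from -0.32 to 0.081. The factors' means moved by over 1.5 times for PAX6 (-0.20) and EN2 (0.05) without H2, for ATOH1 without H2 (0.03), and for BARHL1 without H3 (0.01). EN2, OTX2 and BARHL1 also moved as far under a scaling, to 0.13 and 0.14 after quantile normalization for EN2 and OTX2 and to 0.06 with centring and 0.05 after quantile normalization for BARHL1. ZIC1 moved to -0.10 after quantile normalization. The cause was not tested. The count above the 25th percentile has no value without a filter, and only the tests were run without the trend. No paired analysis was possible because there was a single scrambled array and the labels give no pairs. Signal over background was not known, which limits what can be said of ATOH1.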
